A study of Mus musculus with 4 samples.

Results

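Mitosis and G2/M genes code for the machinery that takes a cell from the end of DNA replication through division, and 54 of the 31828 genes of the deposited table were taken for this set by their gene symbols. The RNA came from AML12 cells, an immortalised line of mouse hepatocytes established from an animal that carried a transforming growth factor alpha transgene. Cells were cultured on the plastic of a dish (2D) or within Matrigel, a gel of basement membrane proteins (3D), and each culture gave 2 of the 4 libraries. All cells received 1 mM hydroxyurea, an inhibitor of ribonucleotide reductase that stalls DNA replication. The study reported arrest at the G1/S boundary, checked by flow cytometry, a point before most of these genes reach their peak in a normal cycle. The cycle state of the cells behind these RNA libraries was not given. The drug was left on for 24 h in the 2D-cultured cells and for 36 h in the 3D-cultured cells, which had been in the gel for 24 h when it was added. Culture and length of treatment therefore differed together in every library and cannot be told apart here, and no library without hydroxyurea was analysed. The labels do not say whether the 2 libraries of a culture came from separate cultures of cells, so p-values measure the spread between these libraries only, which may be technical.

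Entry into mitosis is driven by the kinase Cdk1 bound to cyclin B, with help from the Aurora and Polo kinases. The spindle then captures each chromosome at its kinetochore, and the spindle checkpoint holds back the anaphase-promoting complex (APC/C), a ubiquitin ligase, until every kinetochore is attached. The genes for these proteins are kept silent outside the cycle and in G1 by the DREAM complex, and are switched on in G2 by the MuvB core together with Mybl2 and Foxm1, acting through a promoter element called the CHR (cell cycle genes homology region), often beside CCAAT boxes bound by NF-Y. In the adult liver most hepatocytes rest outside the cycle, and these genes come on when hepatocytes divide again during regeneration.

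The mitosis and G2/M genes were lower in the 3D-cultured cells almost throughout. All 54 passed the filter of a mean of at least 1 TPM (a transcript level corrected for transcript length and scaled to the same total in each library), and 48 of them fell in 3D at an adjusted p-value under 0.05, while 1, Nek2, rose and 5 did not pass the test (limma on log2(TPM + 1), two-sided, adjusted by Benjamini-Hochberg over 14116 tested genes). Over all tested genes 27.1% were called lower and 23.4% higher by the same test, and among the 8022 tested genes within the range of level of the mitotic genes 30.6% were called lower. The median log2 fold change of the 54 genes, 3D over 2D, was -0.62 (quartiles -0.91 and -0.41), against -0.04 over all tested genes (quartiles -0.33 and 0.27). The standard errors of the 54 log2 fold changes ran from 0.03 to 0.13. Both 3D libraries lay below both 2D libraries for 52 of the 54 genes, against 41.6% of tested genes. For Nek2 both 3D libraries lay above both 2D libraries, as for 35.9% of tested genes, and only for Plk1 did the cultures overlap.

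Together the 54 transcripts summed to 9237 and 9284 TPM in 2D against 6028 and 6034 TPM in 3D, so that the 3D-cultured cells held 65.1% of the summed level of the 2D-cultured cells. The cultures did not overlap, and the 2 libraries of each culture lay close together. The typical gene kept 64.5% of its 2D level. In 3D 10 genes stood at or under 50% of their 2D level, 30 between 50% and 75%, and 14 above 75%. A log2 fold change under -1 was reached by 9 of the genes, against 4.02% of all tested genes, and one under -0.5 by 38, against 15.6%. In bulk RNA, fewer cells in a phase of the cycle and less RNA per cell cannot be told apart.

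These were well expressed transcripts in both cultures. The median gene of the set stood at 121 TPM in 2D and at 82.2 TPM in 3D, against a median of 22.0 TPM in 2D over the tested genes, and 19 of them stood above the 90th percentile of level. The lowest mean level was that of Gas2l3 (15.3 TPM) and the highest that of Gtse1 (532 TPM). The order of the genes by level was largely kept between the cultures (Spearman's rho = 0.929 across the 54 genes, which share the same libraries), and the size of the fall bore little relation to level (rho = 0.266 across the same genes).

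**Figure D1:**
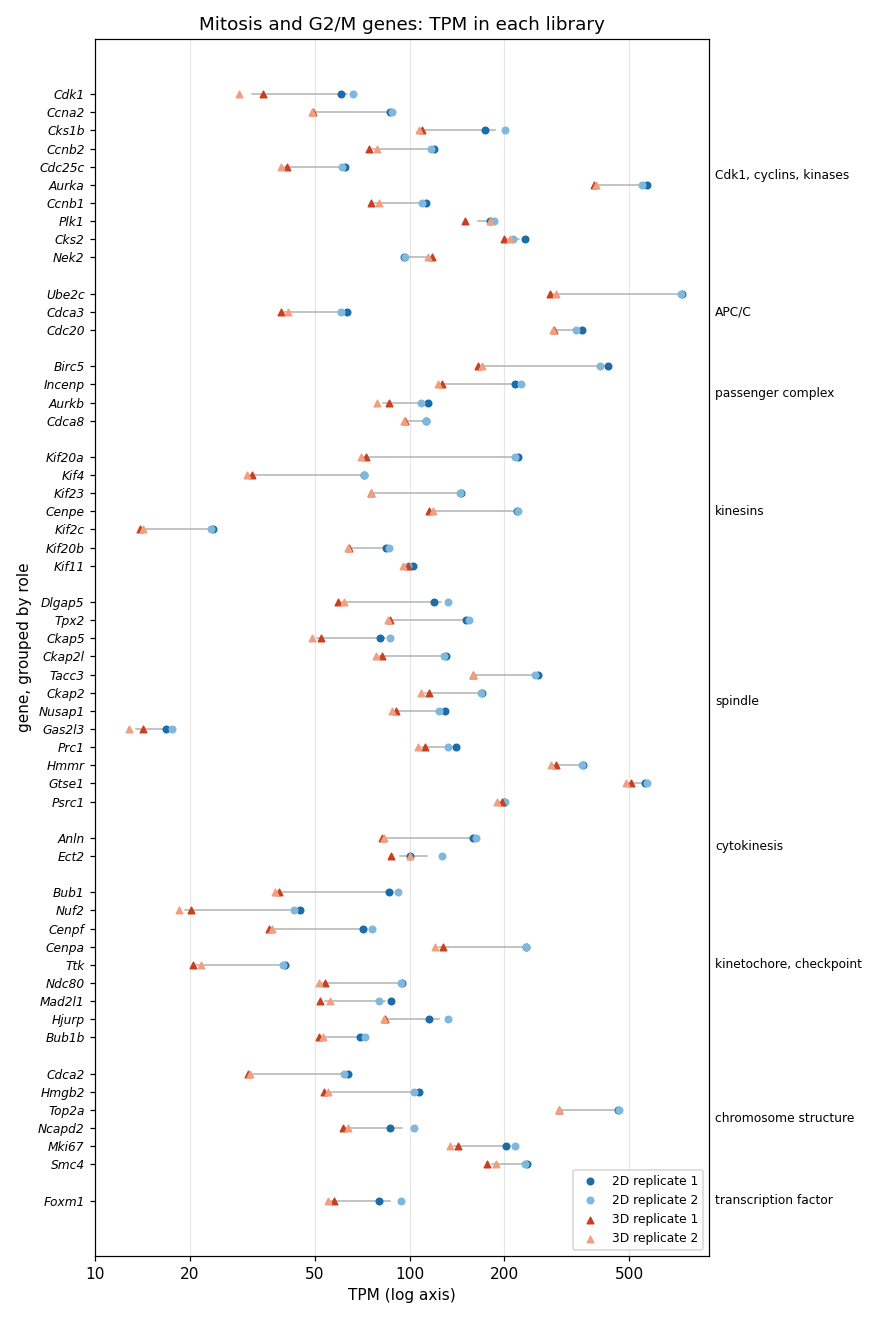
Level of each of the 54 mitosis and G2/M genes in TPM (log axis) in the 2 libraries of 2D-cultured cells (circles) and the 2 of 3D-cultured cells (triangles), with genes grouped by role and ordered by log2 fold change within a role. Grey lines join the 2 culture means, and the triangles lie to the left of the circles for 52 genes, with Nek2 the reverse and Plk1 overlapping.

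Before the values by role, promoter sequences are shown for genes that mark the range of the responses, because G2/M genes are known for a shared promoter layout. The sequences and start sites are those of RefSeq (GRCm38.p6), in windows from 250 bases before to 50 bases after the start, and 44 of the 54 genes had at least 1 promoter in that table (48 promoters). Each stretch below covers 150 bases, is written 5′ to 3′ along the gene, and ends at the RefSeq start or within 30 bases past the gene start of the deposited table. Capitals mark the CHR (TTTGAA or TTCGAA) and the CCAAT box (CCAAT) on either strand, so the reverse forms read TTCAAA and ATTGG. Ube2c and Cdk1 are shown as genes with a large fall, Cdc20 as the partner of Ube2c on the APC/C with a small fall, Cks1b and Cks2 as near relatives that differed, and Kif11 and Nek2 as genes that did not fall.
Ube2c promoter, chr2:164769778-164769927, plus strand: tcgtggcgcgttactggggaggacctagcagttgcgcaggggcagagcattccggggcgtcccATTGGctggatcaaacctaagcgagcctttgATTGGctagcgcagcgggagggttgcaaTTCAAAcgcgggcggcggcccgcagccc
Cdk1 promoter, chr10:69352913-69353062, minus strand: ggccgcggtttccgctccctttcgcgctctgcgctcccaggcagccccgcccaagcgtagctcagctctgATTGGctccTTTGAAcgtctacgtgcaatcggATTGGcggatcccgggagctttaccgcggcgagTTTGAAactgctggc
Cdc20 promoter, chr4:118437344-118437493, minus strand: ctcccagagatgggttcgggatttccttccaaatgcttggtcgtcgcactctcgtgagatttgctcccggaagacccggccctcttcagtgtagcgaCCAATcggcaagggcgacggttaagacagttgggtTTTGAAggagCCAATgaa
Cks1b promoter, chr3:89418354-89418503, minus strand: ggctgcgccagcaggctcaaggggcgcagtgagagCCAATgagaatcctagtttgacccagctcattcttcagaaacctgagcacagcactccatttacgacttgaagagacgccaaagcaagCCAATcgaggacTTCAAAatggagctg
Cks2 promoter, chr13:51645082-51645231, plus strand: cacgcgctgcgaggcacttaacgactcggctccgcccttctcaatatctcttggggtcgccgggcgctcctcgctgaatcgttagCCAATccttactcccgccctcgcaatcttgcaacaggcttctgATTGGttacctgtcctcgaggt
Kif11 promoter, chr19:37376232-37376381, plus strand: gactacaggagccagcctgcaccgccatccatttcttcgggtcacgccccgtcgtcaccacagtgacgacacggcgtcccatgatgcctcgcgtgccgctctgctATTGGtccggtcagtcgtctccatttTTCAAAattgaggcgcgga
Nek2 promoter, chr1:191821323-191821472, plus strand: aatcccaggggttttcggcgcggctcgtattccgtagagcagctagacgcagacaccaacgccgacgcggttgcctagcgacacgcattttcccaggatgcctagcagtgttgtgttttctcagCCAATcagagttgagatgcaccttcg
In the Cdk1 stretch 2 CHR matches and 2 CCAAT boxes alternate. In the Ube2c, Cdc20 and Cks1b stretches 1 CHR match stands near a pair of CCAAT boxes, and Kif11 has 1 match of each. The Cks2 and Nek2 stretches hold CCAAT boxes without a CHR match.

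Over the 48 promoters of the mitosis and G2/M genes, 37 (77.1%) held a CHR match, against 19.2% of the 32851 promoters of the table and 14.1% of promoters of tested genes. A CCAAT box was present in 39 (81.2%), against 37.4% of all promoters, and 27 (56.2%) held 2 or more, against 11.7%. Both motifs occurred together in 33 promoters (68.8%), against 7.52% of all promoters. Promoters of further lists below held these motifs too. A CHR match was in 64.3% for condensin and sister chromatid separation and 62.5% for other motor, spindle and cytokinesis genes. It was in 46.4% for other kinetochore and centromere genes and 28.6% for control of Cdk1 activity. The shares were 26.1% for APC/C genes and 17.1% for DNA replication genes. In the same order a CCAAT box was in 42.9%, 56.2%, 71.4%, 71.4%, 43.5% and 62.9%. For 2 or more it ran from 0% to 43.8%. The core of the E2F site is typical of genes switched on at the start of S phase. As searched (GCGGGAA, both strands), it matched in 0 of the 48 promoters, against 4.6% of all promoters and 8.11% of promoters of tested genes. It was in 40% of 35 promoters of DNA replication genes. Among further mitotic lists it was in 35.7% for other kinetochore and centromere genes and 21.4% for condensin and sister chromatid separation. For other motor, spindle and cytokinesis genes the share was 6.25%, for APC/C genes 8.7% and for control of Cdk1 activity 0%. The 0 of 48 says only that these letters are not in these windows.

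The CHR matches of the mitotic genes sat near the start of transcription. Of 51 matches 70.6% began within 50 bases of the RefSeq start, against 25.2% of the 7260 matches in all promoters, and the median match began at position -15. CCAAT boxes lay further upstream than the CHR matches, with a median position of -69.5 over 94 matches. The median over 17707 matches in all promoters was -92. Of the 94 matches 37.2% began within 50 bases of the start, against 28.2% in all promoters. Of these genes 4 have 2 RefSeq starts, and where their windows overlap the same site is counted more than once.

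**Figure D2:**
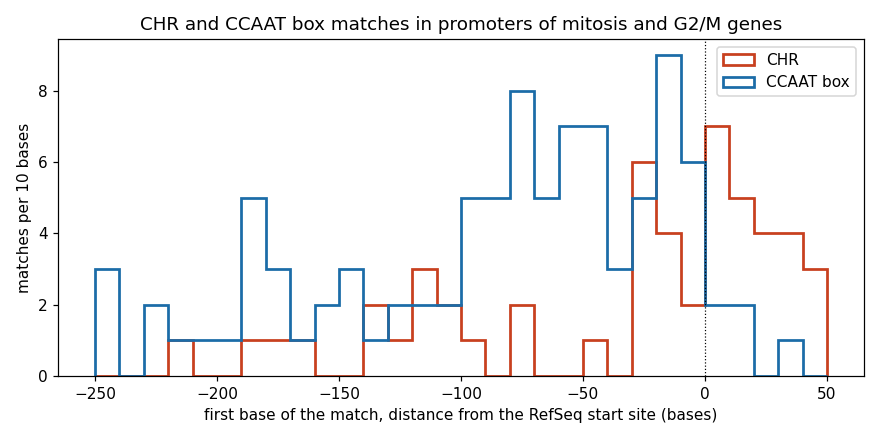
Positions of CHR matches (red) and CCAAT box matches (blue) in 48 promoters of mitosis and G2/M genes, counted in bins of 10 bases by the distance of the first base of the match from the RefSeq start site in bases. CHR matches gather around the start (median -15) and CCAAT boxes upstream of it (median -69.5).

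The genes are given here by the motifs in their windows, with no test. The 34 genes with a CHR match in a promoter had a median log2 fold change of -0.62, with 30 called lower, and the 10 genes without one a median of -0.57, with 8 called lower. For the CCAAT box, the 26 genes with 2 or more had a median of -0.62 (-1.36 to 0.27) with 22 called lower, the 9 with 1 box a median of -0.43 (-0.94 to -0.05) with 7 called lower, and the 9 with none a median of -0.70 (-1.31 to -0.41) with 9 called lower. Birc5, with neither motif in its window, was among the genes with the largest fall, at a log2 fold change of -1.31, while Kif11, with both, stood at -0.05. Of the 40 promoters of 38 genes called lower 77.5% held a CHR match, as did 75% of the 8 promoters of the 6 other genes with a RefSeq window, and a CCAAT box was in 77.5% and 100% of them. A match is a description of sequence and was not tested as a binding site.

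Of the 10 genes for Cdk1, its cyclins and the other kinases of mitotic entry, 7 fell, 1 rose and 2 did not pass the test, with a median log2 fold change of -0.57. Cdk1, the kinase that drives entry into mitosis, measured 60.4 and 66.1 TPM in 2D and 34.2 and 28.7 TPM in 3D. The cultures were well apart, with a log2 fold change of -0.99 ± 0.10 (SE, adjusted p = 0.00227 by limma). Its cyclin partners fell as well, with log2 fold changes of -0.81 for Ccna2, -0.62 for Ccnb2 and -0.51 for Ccnb1. Cdc25c, the phosphatase that removes the inhibitory phosphates from Cdk1, also fell (-0.62). Ccnb1 shares sequence of at least 97% identity with annotated pseudogenes, and those in the table were listed under 1 TPM.

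The Aurora A kinase gene Aurka, which acts at the spindle poles, was among the most abundant of the set, with 570.5 and 549 TPM in 2D and 386 and 392 TPM in 3D. Its 3D libraries were both lower, at a log2 fold change of -0.52 ± 0.04 (SE, adjusted p = 0.000895 by limma). Plk1, the Polo kinase that acts from entry to cytokinesis, gave 179.9 and 186 TPM in 2D and 150.2 and 181 TPM in 3D. Here the cultures overlapped, since replicate 2 of 3D lay just above the lower 2D library, and the log2 fold change of -0.15 did not pass the test (95% confidence interval -0.40 to 0.10, adjusted p = 0.248 by limma). Without replicate 2 of 3D it was -0.28 with an adjusted p-value of 0.0415 by limma, and without replicate 1 of 3D it was -0.02 and did not pass.

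The small Cdk-binding proteins Cks1b and Cks2, which help Cdk complexes to dock on their substrates, differed in their values. Cks1b measured 174 and 201 TPM in 2D and 109.7 and 107 TPM in 3D. Both of its 3D libraries were lower, with a log2 fold change of -0.78 ± 0.08 (SE, adjusted p = 0.00206 by limma). Cks2 measured 234 and 214 TPM in 2D and 200.4 and 209 TPM in 3D. Its cultures were close but did not overlap, and the log2 fold change of -0.12 did not pass the test (95% confidence interval -0.28 to 0.03, adjusted p = 0.14 by limma). It passed without replicate 2 of 2D (-0.19, adjusted p = 0.0477 by limma), stood at -0.06 without replicate 1 of 2D, where it did not pass, and turned to 0.09 after a correction for GC content and length. Within each library the ratio of Cks1b to Cks2 was 0.744 and 0.939 in 2D and 0.547 and 0.511 in 3D. Cks2 has copies of near-identical sequence elsewhere in the genome, of which Gm15452 was listed at 0.684 to 1.83 TPM.

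Nek2, a kinase that splits the centrosomes before mitosis, was the only gene of the set called higher in 3D. It measured 95.7 and 96.95 TPM in 2D and 118 and 114 TPM in 3D. Both 3D libraries were above both 2D libraries, with a log2 fold change of 0.27 ± 0.04 (SE, adjusted p = 0.0074 by limma), and the call was lost without replicate 1 of 3D (0.24, adjusted p = 0.0558 by limma). Nek2 over Ndc80, a kinetochore gene of similar level in 2D, gave ratios of 1.01 and 1.03 in 2D against 2.18 and 2.22 in 3D. Ndc80 itself fell, with a log2 fold change of -0.83, so the ratio holds the changes of both genes. An antisense gene, Gm38037, overlaps Nek2 (chr1:191821444-191833050, GRCm38) and was listed at 12.1 to 14.5 TPM. The libraries were made and aligned with strand information, so the reads of such partners can be told apart.

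All 3 genes of ubiquitin-dependent destruction fell, with a median log2 fold change of -0.62. Ube2c, an E2 enzyme that works with the APC/C (chr2:164769898-164778822, GRCm38), was the most abundant of the 54 in 2D, with 733 and 731 TPM, and measured 279 and 292 TPM in 3D. The cultures were far apart, at a log2 fold change of -1.36 ± 0.04 (SE, adjusted p = 0.000215 by limma). Cdc20, the APC/C activator that the spindle checkpoint holds back, gave 354 and 339 TPM in 2D and 288 and 286 TPM in 3D. It fell too, but by 0.27 on the log2 scale (SE 0.04, adjusted p = 0.00555 by limma). The 2 genes were near each other in 3D only, with a ratio of Ube2c to Cdc20 of 2.07 and 2.16 in 2D against 0.970 and 1.02 in 3D. Cdca3, which takes part in the destruction of the Cdk1 inhibitor Wee1, fell by 0.62.

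The 4 genes of the chromosomal passenger complex, which corrects faulty attachments at the centromere and later acts in cytokinesis, all fell, with a median of -0.63, but by unequal amounts. Birc5, the survivin gene (chr11:117849251-117855743, GRCm38), measured 428 and 404 TPM in 2D and 165 and 169.6 TPM in 3D. Incenp, the scaffold, measured 217 and 227 TPM in 2D and 126 and 123 TPM in 3D. Cdca8, the borealin gene, measured 112.5 and 113 TPM in 2D and 96.9 and 96.0 TPM in 3D. In each of these genes both 3D libraries lay below both 2D libraries, as for 41.6% of tested genes. The log2 fold changes were -1.31 for Birc5, -0.82 for Incenp and -0.22 for Cdca8, each with a SE of 0.04 or 0.05. For Aurkb, the kinase of the complex, it was -0.44 ± 0.06 (SE). Birc5 exceeded Cdca8 by a ratio of 3.81 and 3.58 in 2D against 1.70 and 1.77 in 3D. The call for Cdca8 was lost without replicate 1 of 3D (adjusted p = 0.0615 by limma) and without replicate 2 of 3D (0.0686).

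**Figure D3:**
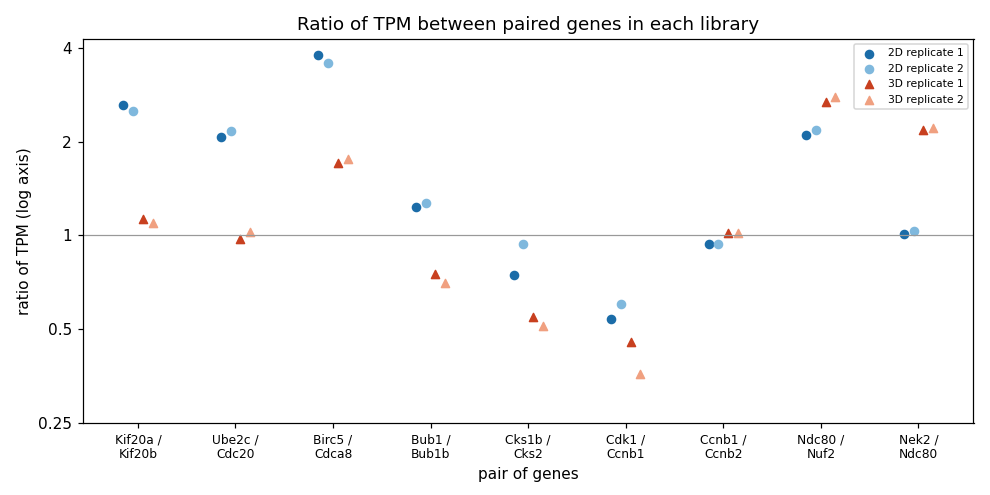
Ratio of TPM (log axis) between pairs of mitosis and G2/M genes within each library, for 2D (circles) and 3D (triangles). The ratio of Ube2c to Cdc20 goes from 2.07 and 2.16 in 2D to 0.970 and 1.02 in 3D, and that of Ccnb1 to Ccnb2 from 0.938 and 0.940 to 1.01 and 1.02.

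Among the 7 kinesins, motors that move along microtubules, 6 fell and Kif11 did not pass the test, with a median log2 fold change of -0.91. Kif20a, a motor of the central spindle needed for cytokinesis, had the largest fall of all 54 genes. It measured 221 and 217 TPM in 2D and 72.4 and 69.8 TPM in 3D. The 2D-cultured cells thus had 3.08 times the level of the 3D-cultured cells, and the log2 fold change was -1.61 ± 0.04 (SE, adjusted p = 0.000202 by limma). Its relative Kif20b, also a cytokinesis motor, fell by 0.41, and the ratio of Kif20a to Kif20b was 2.63 and 2.52 in 2D against 1.13 and 1.09 in 3D.

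The most abundant kinesin, Cenpe, which carries chromosomes to the middle of the spindle, measured 219 and 222 TPM in 2D and 115 and 119 TPM in 3D. It fell by 0.91 on the log2 scale, with the cultures far apart. Kif4, a chromosome-bound motor, fell by 1.18, Kif23, a partner of the central spindle, by 0.94, and Kif2c, which takes microtubule ends apart at the centromere, by 0.70. Kif11, the motor that pushes the spindle poles apart, measured 102.5 and 99.1 TPM in 2D and 98.6 and 95.5 TPM in 3D. Its libraries lay close together across the cultures, and the log2 fold change of -0.05 (95% confidence interval -0.17 to 0.07, adjusted p = 0.371 by limma) did not pass the test.

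Of the 12 genes of spindle and microtubule-associated proteins 11 fell, with a median log2 fold change of -0.55. Dlgap5, which stabilises the fibres that join kinetochores to the poles, measured 119.9 and 132 TPM in 2D and 59.2 and 61.7 TPM in 3D. It fell by 1.05 (SE 0.06, adjusted p = 0.000649 by limma), the largest fall of the group, with the cultures far apart. Tpx2, which activates Aurora A on the spindle, fell by 0.82, and the microtubule polymerase gene Ckap5 by 0.72. Tacc3, which works with Ckap5, fell by 0.66, and Ckap2l, Ckap2 and Nusap1, which bind and bundle spindle microtubules, fell by 0.69, 0.59 and 0.50.

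The 2 most abundant spindle genes were Gtse1 and Hmmr. Gtse1, a microtubule-binding protein that also restrains p53, measured 561 and 569.6 TPM in 2D and 505 and 489.8 TPM in 3D. Hmmr, a spindle pole protein, measured 356 and 354 TPM in 2D and 291 and 282 TPM in 3D. Both genes had separate cultures with 3D the lower, as for 41.6% of tested genes. The log2 fold changes were -0.18 ± 0.04 for Gtse1 and -0.31 ± 0.04 for Hmmr (SE). Psrc1, a microtubule-binding protein and a known target of p53, measured 199.6 and 201 TPM in 2D and 197 and 189.9 TPM in 3D. The cultures lay side by side and the log2 fold change of -0.05 did not pass the test (95% confidence interval -0.15 to 0.05, adjusted p = 0.344 by limma).

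The calls for Prc1, Gas2l3 and Gtse1 could be lost with 1 library left out, which also lowered the number of calls over all tested genes. Their log2 fold changes stayed negative, at -0.36 to -0.28 for Prc1, -0.39 to -0.26 for Gas2l3 and -0.21 to -0.16 for Gtse1. Prc1, which bundles the central spindle, fell by 0.32, and the call was lost without replicate 2 of 3D (adjusted p = 0.0513 by limma). Gas2l3, a linker of actin and microtubules, was the lowest of the 54 in level and gave -0.32 (adjusted p = 0.0285 by limma), a call that was lost without any 1 of the 4 libraries (adjusted p = 0.0637 and 0.0943 without replicates 1 and 2 of 2D, 0.0551 and 0.127 without replicates 1 and 2 of 3D, all by limma). Part of its transcript also shares sequence of at least 97% identity with several other genes, among them Arcn1 at 133 to 188 TPM. The call for Gtse1 was lost without replicate 1 of 3D (adjusted p = 0.0677 by limma) and without replicate 2 of 3D (0.111).

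Anln and Ect2 act at the cleavage furrow. Anln, the anillin gene, which ties actin and myosin to the furrow, measured 159.6 and 162 TPM in 2D and 81.6 and 82.8 TPM in 3D. It fell by 0.96 on the log2 scale (SE 0.04, adjusted p = 0.00032 by limma), with tight pairs of libraries. Ect2, the exchange factor that activates RhoA, measured 100.7 and 127 TPM in 2D and 87.0 and 100.1 TPM in 3D. The upper 3D library lay just under the lower 2D library, and the log2 fold change of -0.27 ± 0.13 (SE) did not pass the test (95% confidence interval -0.63 to 0.08, adjusted p = 0.151 by limma). Ect2 had the largest standard error of the set, and without replicate 1 of 2D its log2 fold change was -0.44 with an adjusted p-value of 0.0479 by limma. Without replicate 2 of 2D it was -0.11 and did not pass.

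**Figure D4:**
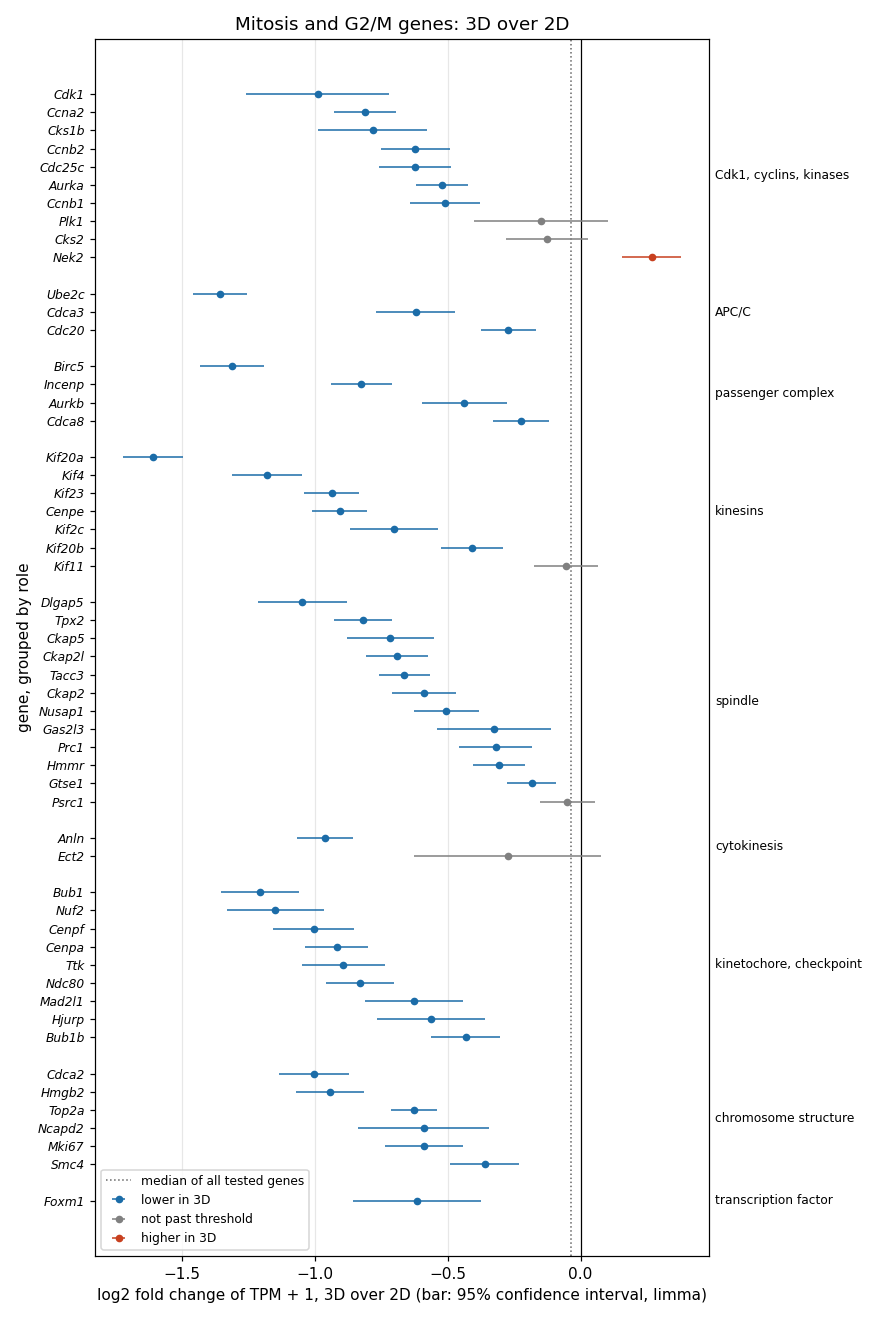
Log2 fold change of TPM + 1, 3D over 2D, for each of the 54 genes grouped by role, with bars for the 95% confidence interval of the limma fit. Blue marks the 48 genes called lower, red Nek2 and grey the 5 genes that did not pass the test, and the dotted line is the median of all tested genes, -0.04.

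All 9 genes of the kinetochore, the centromere and the spindle checkpoint fell, with a median log2 fold change of -0.89. Bub1, a checkpoint kinase that marks the inner centromere, measured 85.9 and 91.6 TPM in 2D and 38.5 and 37.4 TPM in 3D. It fell by 1.20 (SE 0.06, adjusted p = 0.000406 by limma). Its relative Bub1b, the gene of BubR1 in the checkpoint complex, measured 69.8 and 71.9 TPM in 2D and 51.4 and 53.2 TPM in 3D, a fall of 0.43 and the smallest of the group. Their order was reversed between the cultures, with a ratio of Bub1 to Bub1b of 1.23 and 1.27 in 2D against 0.748 and 0.703 in 3D.

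Nuf2 and Ndc80, partners in the Ndc80 complex that grips the microtubule, fell by 1.15 and 0.83. Cenpf, an outer kinetochore protein, fell by 1.00, the checkpoint kinase gene Ttk by 0.89 and Mad2l1, the checkpoint protein that captures Cdc20, by 0.63. Cenpa, the histone H3 variant that marks the centromere, was the most abundant gene of the group, with 235 and 235 TPM in 2D and 128 and 120.4 TPM in 3D. Its chaperone Hjurp measured 115 and 133 TPM in 2D and 83.8 and 83.0 TPM in 3D. For both genes each 3D library was below each 2D library, as for 41.6% of tested genes. The log2 fold changes were -0.92 ± 0.05 for Cenpa and -0.56 ± 0.08 for Hjurp (SE).

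The 6 genes of chromosome structure all fell, with a median of -0.61. Top2a, the topoisomerase that untangles sister chromatids, measured 459 and 465 TPM in 2D and 299 and 299 TPM in 3D. Its log2 fold change was -0.63 ± 0.03 (SE, adjusted p = 0.000494 by limma), the smallest standard error of the set. Cdca2, which brings a phosphatase to chromatin at the end of mitosis, measured 63.6 and 61.8 TPM in 2D and 30.6 and 31.0 TPM in 3D, a fall of 1.00. Smc4, a core subunit of both condensins, measured 237 and 232 TPM in 2D and 176 and 189 TPM in 3D, a fall of 0.36 and the smallest of the group. For each of these genes both 3D libraries lay below both 2D libraries, as for 41.6% of tested genes. Hmgb2, a DNA-bending chromatin protein with near-identical copies that were listed under 1 TPM, fell by 0.94, and Ncapd2, a condensin I subunit, and Mki67, the gene of the proliferation antigen Ki-67, by 0.59 each.

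Foxm1, the forkhead factor that switches on many of these genes in G2, measured 79.7 and 94.2 TPM in 2D and 57.4 and 55.1 TPM in 3D. The 2D libraries were spread more widely than the 3D libraries, and all 3D values were lower, at a log2 fold change of -0.61 ± 0.09 (SE, adjusted p = 0.00617 by limma). A gene on the same strand that overlaps Foxm1, Tex52, was listed at 2.98 to 5.98 TPM.

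Further genes of the mitotic pathway, from lists that do not overlap with the 54, are described by how many passed the same test and by their medians. Over all tested genes 27.1% were called lower and 23.4% higher. Of 31 other kinetochore and centromere genes 27 fell and 2 rose, with a median log2 fold change of -0.66. Cenpm, an inner kinetochore subunit, was both the most abundant and the one that fell most, from 567 and 545 TPM in 2D to 229 and 219 TPM in 3D (-1.31), while Knl1, the scaffold on which Bub1 docks, gave 0.23. The 2 genes that rose were no longer called when any 1 library was left out. Of 16 other motor, spindle and cytokinesis genes 13 fell and 0 rose in the limma fit (0 also at an unadjusted p-value under 0.05), with a median of -0.79, and the lowest value for Spag5, a spindle protein (-1.27). The highest was that of Kifc1, a minus-end motor, which measured 149 and 110.2 TPM in 2D and 171 and 162 TPM in 3D and did not pass the test (0.37). Without replicate 1 of 2D, 1 gene of this list was called higher. Of 12 genes of condensin and sister chromatid separation 10 fell, with a median of -0.62 and the lowest value for Sgo2a, a protector of centromeric cohesion (-0.90). Pttg1, the securin gene, did not pass although its log2 fold change was -0.86, since its 2D libraries were far apart at 222 and 118 TPM against 83.4 and 94.3 TPM in 3D.

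The ligase on which Ube2c and Cdc20 act was described by its other genes. Of 19 APC/C subunits and regulators 8 fell (42.1%), 1 rose (5.3%) and 10 did not pass the test, with a median of -0.18. Of all tested genes 27.1% fell and 23.4% rose. Among its 14 core subunits 6 fell and 1 rose, with the lowest value for Anapc5, a scaffold subunit (-0.84), and the highest for Cdc26 (0.66). Ube2s, the E2 enzyme that extends the ubiquitin chains begun by Ube2c, measured 524 and 715 TPM in 2D and 593 and 618 TPM in 3D. Its cultures overlapped, with a log2 fold change of -0.02 ± 0.15 (SE) against -1.36 ± 0.04 for Ube2c. Without replicate 2 of 3D 5 of the 19 were called lower, and without replicate 2 of 2D 2 were called higher.

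Of 9 genes that control the activity of Cdk1, 5 fell (55.6%) and 1 rose (11.1%), against 27.1% and 23.4% of all tested genes. Their median was -0.35, and it ran from -0.38 to -0.25 with 1 library left out. Bora, the cofactor through which Aurora A activates Plk1, measured 18.9 and 24.0 TPM in 2D and 9.88 and 10.2 TPM in 3D. It fell by 1.02 while Plk1 did not pass the test, so that the ratio of Plk1 to Bora was 9.50 and 7.74 in 2D against 15.2 and 17.7 in 3D. Ccnf, the F-box protein gene known as cyclin F, was higher in 3D, at 88.7 and 90.9 TPM in 2D and 122 and 120.1 TPM in 3D (0.42).

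The regulators that act on such promoters were counted in the same way. Of 22 genes of the E2F, RB, MuvB and NF-Y proteins 7 fell (31.8%) and 3 rose (13.6%), against 27.1% and 23.4% of all tested genes, and their median of -0.02 changed sign with the processing. The share that fell was near that of all genes. The lowest was E2f7, a repressor of the E2F family, with 43.7 and 49.2 TPM in 2D and 18.9 and 18.9 TPM in 3D (-1.25), and the highest was Rbl2, the p130 subunit of DREAM, with 15.1 and 18.1 TPM in 2D and 24.9 and 23.3 TPM in 3D (0.52). Mybl2, named above with the MuvB core, fell from 26.3 and 28.7 TPM in 2D to 12.5 and 12.7 TPM in 3D (-1.06). Of the MuvB core genes Lin37 fell (-0.45), Rbbp4 rose (0.21), and Lin9, Lin52 and Lin54 did not pass the test. Without replicate 1 of 3D or without replicate 2 of 3D, 1 of the 22 was called higher.

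Genes of DNA replication, the phase before, were lower as well. Of 38 DNA replication genes 36 fell and 0 rose in the limma fit (0 also at an unadjusted p-value under 0.05), with a median of -0.57 against -0.62 for the mitosis and G2/M genes. All 6 subunits of the Mcm2 to Mcm7 helicase were called lower, with a median of -0.56, and Pole, the catalytic subunit of DNA polymerase epsilon, was the lowest of the list (-1.79). Of 14 tested G1/S cyclins, kinases and inhibitors 1 fell (7.1%) and 5 rose (35.7%), against 27.1% and 23.4% of all tested genes. Their median of -0.06 changed sign with the processing. The gene that fell was Cdk2, the partner of cyclins E and A (-0.48), and 2 genes were called lower without replicate 2 of 2D and 3 without replicate 2 of 3D. Ccnd1, the cyclin D1 gene, rose by 0.77 on the log2 scale. Cdkn1a, the gene of the Cdk inhibitor p21, measured 2805 and 2759 TPM in 2D and 3364 and 3323 TPM in 3D (0.27). Both 3D values were higher, and the level was high in both cultures. The lists were not tested against each other.

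**Figure D5:**
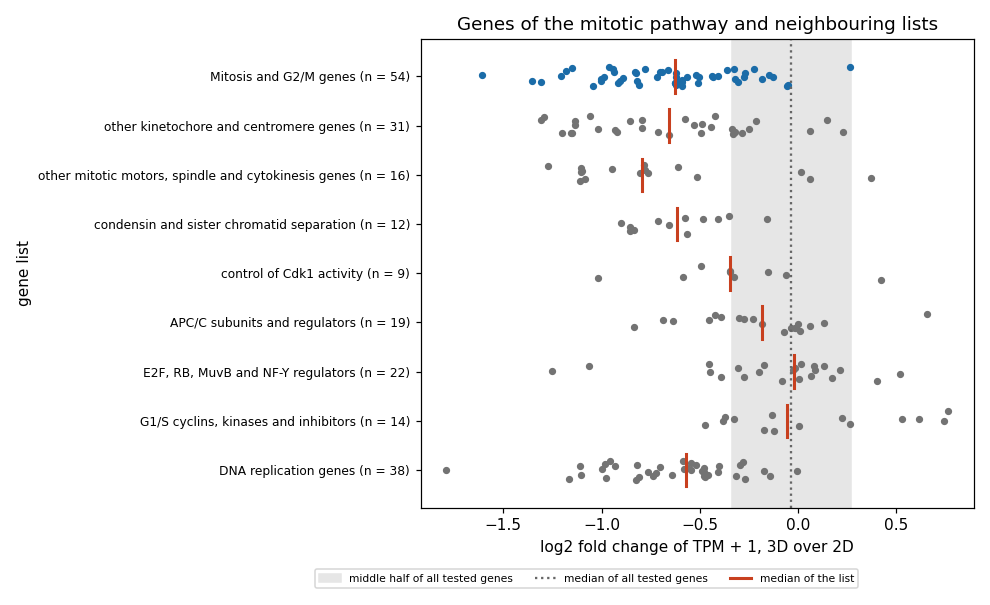
Log2 fold change of TPM + 1, 3D over 2D, of single genes (points) in the 54 mitosis and G2/M genes and in 8 other lists, with the median of each list (red bar), the median of all tested genes (dotted line) and the span from -0.33 to 0.27 between the quartiles of all tested genes (grey). The medians run from -0.79 for other motor, spindle and cytokinesis genes to -0.02 for the E2F, RB, MuvB and NF-Y regulators.

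The labelled cell type and the state of the libraries were checked beside these results. All 9 hepatocyte markers reached 1 TPM, and 6 of them were higher in 3D, with Alb at 0.819 and 1.20 TPM in 2D and 12.7 and 10.0 TPM in 3D, while Krt8, Krt18 and Apoe were lower. The summed level of the hepatocyte list was 9433 to 9633 TPM in 2D and 5619 to 5699 TPM in 3D, most of it from Krt8 and Krt18. Of 5 cholangiocyte and progenitor markers 4 reached 1 TPM, with a sum of 2294 to 2401 TPM in 2D and 2269 to 2357 TPM in 3D, and Epcam was at or near 0. These near-equal sums held opposite changes. Krt19 (-0.49) and Krt7 (-0.65) were lower in 3D, and Sox9 (0.62) and Spp1 (2.35) were higher. Only Des reached 1 TPM of 6 stellate cell and fibroblast markers (list sum 35.0 to 37.6 TPM in 2D and 18.7 to 19.7 TPM in 3D), and Cd68 and Lyz2 of 5 macrophage and leukocyte markers (20.2 to 20.7 and 23.8 to 27.1 TPM). Of 5 endothelial markers 0 did (0.878 to 1.54 and 1.64 to 2.13 TPM). Mitochondrial transcripts took 5.37% to 5.44% of the TPM in 2D and 6.51% to 6.78% in 3D. The part of these differences in the fall of the mitotic genes was not tested.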

How the data were processed

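Polyadenylated RNA of AML12 cells was sequenced in 2 libraries of 2D and 2 of 3D cultures. Per the submitters' notes and the study's methods, the authors used cutadapt 1.8.3 and Trimmomatic 0.36 for trimming, HISAT2 2.0.5 in stranded mode for alignment to GRCm38, and StringTie 1.3.4 with the Ensembl 93 annotation for quantification. The authors deposited TPM for each library, without pooling. The 2 deposited columns of the authors' own DESeq2 comparison, a log2 fold change and a p-value, were not used. TPM values are relative within a library and sum to nearly the same total in each (999943 to 999962), so depth is unknown and no interval that needs read counts was computed.

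Libraries were grouped by the culture in their labels. Replicates correlated at Pearson's r of 0.991 in 2D and 0.992 in 3D across tested genes, and libraries of different cultures at 0.951 to 0.952. Genes with a mean of at least 1 TPM (14116) entered a limma 3.58.1 fit (R 4.3.3) of log2(TPM + 1) on culture alone, with a robust, trended variance prior, two-sided p-values adjusted by Benjamini-Hochberg and a threshold of 0.05. Log2 fold changes are on that scale and understate changes of low genes. An exact permutation test of 2 against 2 libraries cannot go below 0.333, so none was used for single genes. The fit was run on simulated data with independent normal noise and far fewer changed genes than were called here. That run does not give the error rate of these calls. Motifs were searched in Python 3.11.15, and figures drawn with matplotlib 3.10.9.

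The members and lists were chosen with earlier results of these data known. Values in every library are given for the 2 most abundant genes of each role, those with the lowest and highest log2 fold change, and those that rose or missed the threshold, and of each other list the most abundant gene and those with the lowest and highest log2 fold change could be named. Mybl2 and the MuvB core genes were named in addition, after the values were seen. The gene pairs of the ratios, the APC/C core subunits and the Mcm2 to Mcm7 subset were not set out beforehand either. Alternatives were pseudocounts of 0.1 and 5, no filter or a mean of at least 5 TPM, quantile normalization, median centring, rescaling after removal of mitochondrial and the 20 highest genes, a replicate block, a constant variance prior and each library left out. A spline correction (5 degrees of freedom) for the length and GC content of transcripts was added after the data were seen. Protein sequences and Hi-C libraries were not analysed here.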

Additional observations from a re-analysis of the deposited data

How the results depend on the processing

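Over 14 alternatives the 54 mitosis and G2/M genes gave 756 log2 fold changes, of which 755 kept their direction and 738 also their side of the threshold. The exception in direction was Cks2, at 0.0896 once length and GC content were corrected for, an alternative chosen after seeing the data. Between 47 and 48 of the 54 genes were called lower under the alternatives that keep all libraries, and 45 to 48 with 1 library left out. The median was -0.64 to -0.59 with all libraries and -0.66 to -0.64 with 1 left out. Nek2 was the gene called higher in all of them but 1, so that the count ranged from 0 to 1 with 1 library left out. The summed level in 3D was 66.3% of 2D after rescaling, 65.7% after centring and 66.3% after quantile normalization, and 65.0% to 65.3% with 1 library left out.

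Over all tested genes 5977 to 7214 were called with all libraries, and 4720 to 5954 with 1 left out, of which 2571 to 3243 were lower. With a single library in a culture, that library is assumed to vary like the other culture. The median of the G1/S list turned to 0.000665 with the GC content and length correction and to 0.00654 at a mean of at least 5 TPM, and that of the E2F, RB, MuvB and NF-Y list to 0.00599 after rescaling and -0.0619 to 0.00172 with 1 library left out. The cause of these changes was not tested.

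Same-numbered libraries shared only a number, with a correlation of -0.0549 between their deviations from the culture means. With the replicate number as a block 6248 genes were called, and the counts of 48 lower and 1 higher mitotic gene stayed as they were, with Gas2l3 losing its call (adjusted p = 0.0559 by limma) and Ect2 gaining one (0.0280). Gas2l3 also lost its call with no filter on low values (0.0662) and Gtse1 with a constant variance prior (0.0601). Tests on counts could not be run on TPM. With 2 libraries per culture and unknown depth, small differences such as those of Kif11 and Psrc1 were not detectable, and no group was large enough to look for outlying libraries.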
